A study of Xenopus laevis with 18 samples.

Results

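Early and late neurula embryos of Xenopus laevis, the African clawed frog, were compared in poly(A)+ RNA from 4 of the 18 whole-embryo libraries of the series. The early side held the libraries at Nieuwkoop-Faber stages 14 and 16 and the late side those at stages 18 and 20; the members were chosen by these stage labels. Each stage was sampled by 1 library, so no stage has a replicate, and the libraries of a side are different time points. All embryos were untreated J strain animals raised in dilute MMR saline with gentamycin, frozen whole at the wanted stage; the labels give neither the number of embryos in a library nor their clutch. Of the 31357 gene models in the table, the 12664 at 5 TPM or more in 2 or more of the 4 libraries were compared. TPM is a share of all transcripts in a library, here rescaled to a total of 1000000 over the gene models, without spike-ins and without 2 models that were at 0 in these 4 libraries.

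Neurulation is the period in which the flat neural plate on the back of the embryo bends, its edges rise as neural folds, and the folds meet and fuse into the neural tube, the source of brain and spinal cord. Over the same stages the mesoderm beside the notochord starts to divide into somites, neural crest cells leave the closing folds, and the outer ectoderm becomes epidermis with mucus-secreting and ciliated cells. None of these tissues could be followed by name, since the table identifies models only by the authors' own identifiers and 0 of the 31357 were found in the RefSeq table of X. laevis gene names. Whole embryos were measured, so fewer cells of a type and less RNA per cell cannot be told apart.

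The 4 libraries differed in how much of the low end of the table they held. Models at 1 TPM or more numbered 17070, 17855, 18031 and 19231 in stage order. Models listed at 0 numbered 10365, 9415, 9320 and 6489 likewise, and among the 12664 compared they numbered 71, 36, 42 and 15. Spike-in RNAs, synthetic RNAs added to a sample, made up 7.18%, 6.45%, 5.51% and 3.15% of the deposited total. Of the 4 columns only that of stage 20 carries the suffix rr, which no label explains; outside the neurula the columns of stage 0 and of all 4 stages from 23 to 33 carry it. Within the neurula, what the suffix stands for cannot be told apart from stage 20. TPM keeps no sequencing depth; the depth of each library is unknown.

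Models that differed by 2-fold or more in TPM + 1 between the sides were more often higher than lower in the late neurula. A consistent rise was counted where both late values lay above both early values and the mean difference in log2(TPM + 1) was 1 or more; 609 of 12664 models met this (4.81%). A consistent fall, the same rule downward, was met by 167 models (1.32%), so there were 3.65 rises for each fall. The other 11888 models met neither. The median difference was 1.37 among the rises and -1.29 among the falls on the log2(TPM + 1) scale, against 0.12 over all models compared. Of the rises, 374 had a difference under 1.5, 135 lay from 1.5 to under 2, 74 from 2 to under 3 and 26 at 3 or more. The falls split into 112, 35, 13 and 7 over the same ranges. Of the 37 spike-ins that averaged 10 TPM or more and were never at 0, taken as shares of the spike-in total, 0 met either rule, and their largest mean difference was 0.92. They are too few to set against shares of 4.81% and 1.32%. They also leave out the low levels, while 313 rises had a mean under 10 TPM over the 4 libraries. With 3 libraries in place of 4, leaving out stage 16 or stage 18 gave 1080 and 1079 rises and 268 and 326 falls. Leaving out the earliest or the latest of the 4 stages gave fewer rises, 479 and 414, and more falls, 189 and 182. Rises were then 71.7% and 69.5% of the consistent changes, against 78.5% with all 4 libraries. Without stage 16 or stage 18 they were 80.1% and 76.8%.

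**Figure D1:**
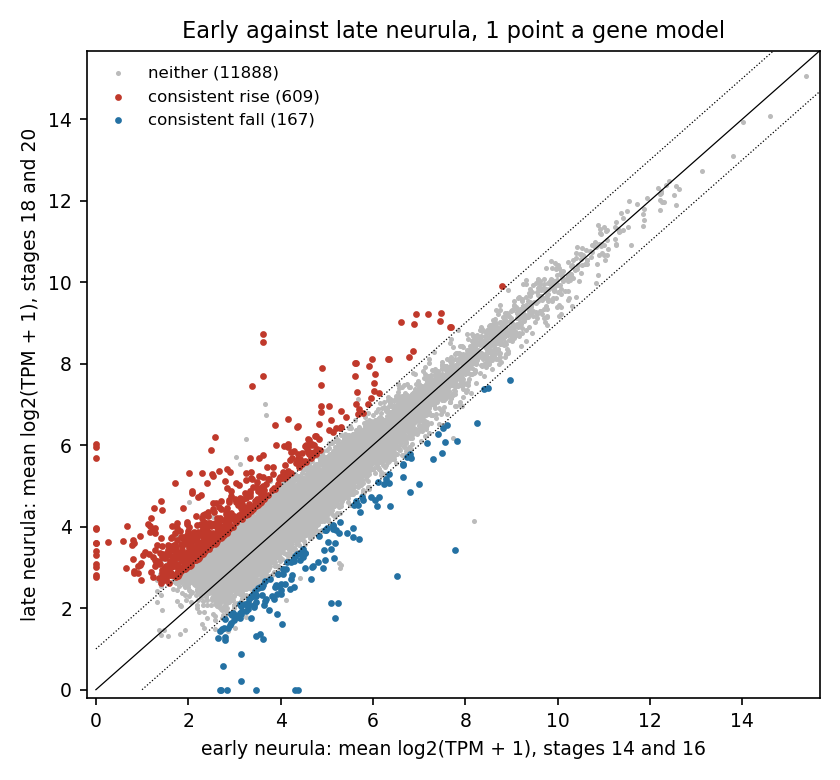
Mean log2(TPM + 1) of the late neurula (stages 18 and 20) against that of the early neurula (stages 14 and 16), 1 point for each of 12664 gene models. The solid line marks equal levels and the dotted lines a difference of 1; the 609 consistent rises lie above the upper dotted line and the 167 consistent falls below the lower one, both mostly at low to middle levels.

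The excess of rises depended on the scaling. The total-based scaling put the median of all models at 0.12, and median-of-ratios scaling moved it to -0.04. With median-of-ratios scaling there were 434 rises and 272 falls, so rises were 61.5% of the consistent changes in place of 78.5%. Quantile normalization gave 496 and 404 (55.1% rises). Scaling to the spike-ins gave 3722 and 20 (99.5% rises) with a median of 0.83 over all models. The amount of spike-in RNA put into each sample is not known here. Consistent rises outnumbered consistent falls under each of these scalings, but without the threshold on size the order turned with the scaling.

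Without regard to size, both late values lay above both early values in 4280 models (33.8%) and below them in 2158 (17%). This order was reversed with median-of-ratios scaling, with 2865 above and 3527 below, and with quantile normalization, with 3387 and 3630. Of the models as first scaled, 3671 and 1991 differed by less than 1 on the log2 scale. A further 54 models with a mean difference of 1 or more and 16 with one of -1 or less had overlapping sides and were not counted. At the edge of the rule, the smallest rise counted had 3.54 and 3.68 TPM early and 5.90 and 11.3 TPM late. The largest one left out had 22.1 and 46.0 TPM early and 48.7 and 86.5 TPM late. For the falls, the last one counted had 53.1 and 45.0 TPM early against 26.3 and 21.7 TPM late, and the first left out 25.3 and 17.6 TPM against 12.0 and 8.39 TPM. Within 0.05 of the threshold lay 56 rises inside and 83 models outside, and 19 falls inside and 27 outside.

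In a test across all models the calls were few and almost all upward, and for an uncounted part of them the filter fixed the direction. The limma fit took its spread from all 18 libraries within 7 stage groups (11 residual degrees of freedom) and called 143 models higher in the late neurula (1.13%) and 5 lower (0.0395%) at an adjusted p under 0.05. At an unadjusted p under 0.05 there were 646 higher and 152 lower. All 143 higher calls were consistent rises and all 5 lower calls consistent falls, with differences from 1.19 to 6.02 and from -1.29 to -4.38. The 143 models called higher had medians of 2.38, 3.68, 12.0 and 22.1 TPM over stages 14, 16, 18 and 20. Models with both early values under 5 TPM passed the filter only through the late libraries, so their direction was fixed. How many of the 143 this covers was not counted, but their medians at both early stages were under 5 TPM. The upper quartiles of the 143 were 5.011 and 7.535 TPM at stages 14 and 16. Both rises named below had both early values under 5 TPM. In the other direction, XeXenL6RMv10003207m and the 3 lower calls with a maximum under 10 TPM passed only through the early libraries. A fit of the 4 neurula libraries alone, with 2 residual degrees of freedom, called 2 higher and 0 lower, with 1938 at an unadjusted p under 0.05. The split of the calls moved with quantile normalization to 111 higher and 37 lower (75% higher, against 96.6%), and a pseudocount of 0.1 TPM left 10 and 0. A linear trend over the order of the 4 stages called 593 higher and 167 lower. Without stage 14 the 18-library fit called 24 higher, and without stage 20 it called 21. For a single value, 2 libraries against 2 cannot go below an exact two-sided permutation p of 0.333.

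The 2 largest rises among called models were from listed zeros. XeXenL6RMv10037918m was listed at 0 at stages 14 and 16 and reached 60.2 and 68.2 TPM at stages 18 and 20. It was listed at 0 in each library before stage 14 too, and stood at 28.4, 63.8, 176 and 197 TPM at stages 23, 26, 30 and 33, so the model was above 0 in every library from stage 18. Its difference was 6.02 ± 0.33 (SE) on the log2(TPM + 1) scale (limma adjusted p = 3.76e-08), and it was one of the 2 models called in the fit of the 4 libraries alone (limma adjusted p = 0.00403). At stage 18 another model, XeXenL6RMv10024106m, had the identical value of 60.233 TPM. At stages 20 and 23 that model stood at 272.743 and 312.967 TPM. These values are near whole multiples of the 68.188 and 28.45 TPM of XeXenL6RMv10037918m. Those at stages 26, 30 and 33 are not, but values resting on few reads need not be whole multiples of each other. The number of reads behind these values is not known, and whether they rest on few reads was not tested.

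XeXenL6RMv10003536m was likewise listed at 0 in each library to stage 16. Its late neurula values were 115 and 32.6 TPM, followed by 27.4, 40.9, 106 and 47.0 TPM in the 4 tailbud libraries. The sides did not overlap, though the late values differed by 1.79 between themselves on the log2(TPM + 1) scale. The difference was 5.97 ± 0.46 (SE; limma adjusted p = 3.68e-06), and the call was lost in the fit of the 4 libraries alone (limma adjusted p = 0.0883). Both models were listed at 0 in 12 of the 18 libraries from which the spread was taken. For XeXenL6RMv10003536m too, the number of reads behind the values is not known, and whether they rest on few reads was not tested.

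The 2 models that met the rule for a named fall differed from each other in their course. XeXenL6RMv10053373m had 38.5, 32.1, 12.1 and 10.2 TPM over stages 14, 16, 18 and 20. Before the neurula it lay between 51.7 and 123 TPM, and afterwards between 8.56 and 12.5 TPM, so the late neurula values lay at the level of the later stages. The difference was -1.58 ± 0.33 (SE; limma adjusted p = 0.0219). XeXenL6RMv10003207m stood at 21.9 and 17.9 TPM at stages 14 and 16 and was listed at 0 at stages 18 and 20, with a difference of -4.38 ± 0.87 (SE; limma adjusted p = 0.0145). Outside the neurula it was above 0 at only 2 stages, 23 with 10.4 TPM and 30 with 8.49 TPM, so listed zeros also alternate with values in later libraries. Both calls were lost when any 1 of the 4 neurula libraries was left out (limma adjusted p from 0.0554 to 0.35).

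**Figure D2:**
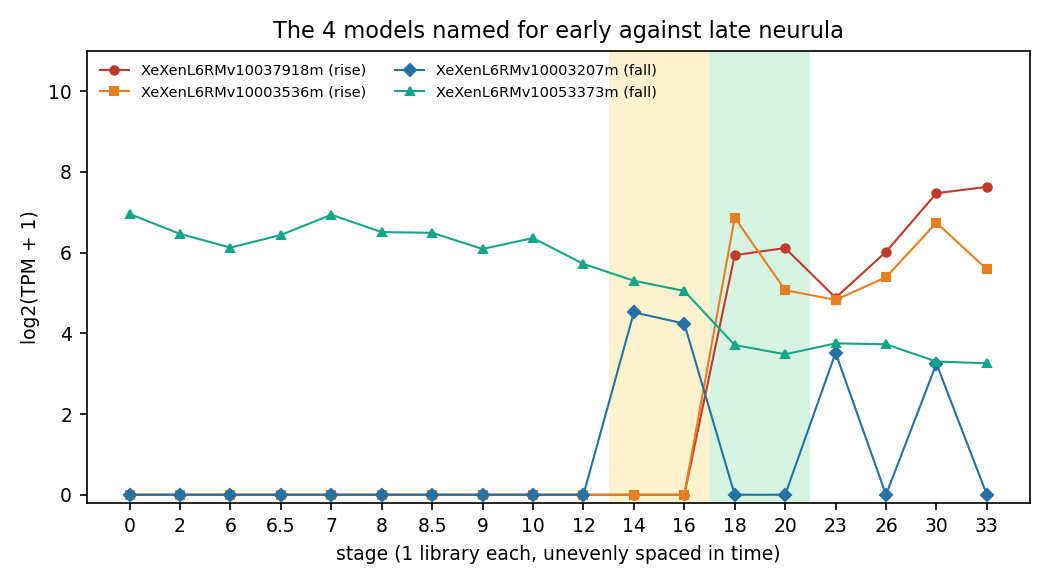
Level of the 4 named models, as log2(TPM + 1), in each of the 18 libraries by stage (1 library a stage); yellow marks the early and green the late neurula. The 2 rises are at 0 up to stage 16 and above 0 in each later library, 1 fall steps down from 38.5 and 32.1 TPM to 12.1 and 10.2 TPM, and the other moves between 0 and values under 22 TPM.

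The other 3 lower calls were low models. They ranged from 6.43 to 8.40 and 5.08 to 8.73 TPM over the early stages, then from 0 to 3.03 and 1.26 to 3.06 TPM over the late ones. Among abundant models, 10 rises had a mean of 300 TPM or more over the 4 libraries. Their medians were 149, 166, 443 and 650 TPM over stages 14, 16, 18 and 20. XeXenL6RMv10027830m was among them, at 0, 152, 1165 and 155 TPM. It had the lowest value of the 10 at stages 14 and 20 and the highest at stage 18. The single fall at this level, XeXenL6RMv10046212m (chosen after its values were seen), went from 612 TPM at stage 14 to 410, 243 and 152 TPM at stages 16, 18 and 20. It was lower at each step, with a difference of -1.38 ± 0.52 (SE) that did not pass (limma adjusted p = 0.468).

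Consistent rises were most frequent among low models. With a mean under 10 TPM over the 4 libraries, 313 of 3726 models were rises (8.4%) and 73 were falls (1.96%). From 10 to under 30 TPM the shares were 4.13% and 1.15% of 4629 models, from 30 to under 100 TPM 2.69% and 1.01% of 2783, and from 100 to under 300 TPM 2.01% and 1.21% of 994. At 300 TPM or more they were 1.88% and 0.188% of 532 models. The median difference of all models went the same way, from 0.22 in the lowest range to -0.01 in the highest. The falling number of listed zeros toward stage 20 moves with this pattern, and its part was not tested. Low models also enter more easily on one side. For 242 of the 609 rises both early values were under 5 TPM, so they passed the filter only through the late libraries and had to differ; the same held for 52 of the 167 falls through the early ones. At 5 TPM or more in all 4 libraries there were 215 rises and 73 falls among 10372 models.

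The share of the transcriptome held by these models was small. The 609 rises together held 0.621%, 0.868%, 1.95% and 2.92% of the TPM in stage order. The 167 falls held 0.834%, 0.654%, 0.343% and 0.231% likewise. These sums follow models picked on the same values. The 100 most abundant models of each library held 35.2%, 33.5%, 32.4% and 30.0% of the total at stages 14, 16, 18 and 20.

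The 3 steps between neighbouring stages moved similar numbers of models, and their order depended on the scaling. From stage 14 to 16, 440 models were 2-fold or more higher in TPM + 1 (3.47%) and 154 lower (1.22%), together 594. From stage 16 to 18, which joins the sides, 325 were higher (2.57%) and 230 lower (1.82%), together 555. From stage 18 to 20, 428 were higher (3.38%) and 153 lower (1.21%), together 581. Of the 37 spike-ins, 1 was past 2-fold from stage 14 to 16, 0 from 16 to 18 and 1 from 18 to 20, each upward. The 37 are too few for a share to set against those of the models. Each step rests on 1 library at either end and was not tested. The median of all models moved by 0.11, 0.01 and 0.11 over the 3 steps. After median-of-ratios scaling the counts higher and lower were 346 and 202, then 301 and 251, then 256 and 270, so more models were lower than higher at the last step. The totals were then 548, 552 and 526, and with quantile normalization 732, 843 and 832, so the middle step was the largest under both. With spike-in scaling 4847 models were 2-fold higher at stage 20 than at stage 18. In all, 11341 models (89.6%) passed 2-fold at no step.

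**Figure D3:**
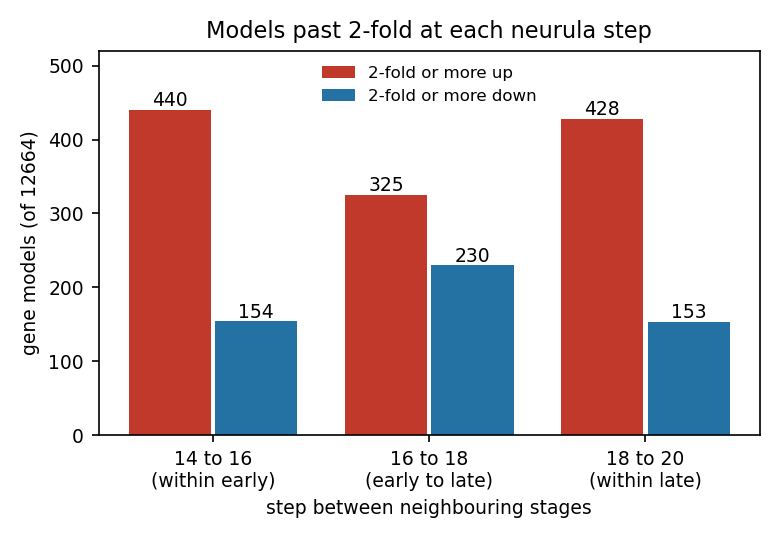
Number of gene models, of 12664, that were 2-fold or more higher (red) or lower (blue) in TPM + 1 at each step between neighbouring neurula stages, 1 library a stage. The totals are 594, 555 and 581; with median-of-ratios scaling (548, 552 and 526) and quantile normalization (732, 843 and 832), not drawn, the middle step is the largest.

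Most rises went up at every step. A step up of 2-fold or more was seen in 132 rises from stage 14 to 16, 240 from 16 to 18 and 117 from 18 to 20. Of the 609 rises, 446 were higher at each of the 3 steps, while 106 were lower at stage 16 than at stage 14 and 78 lower at stage 20 than at stage 18. These counts were made with the total-based scaling alone and were not made over all models. Their median level was 3.63, 5.90, 11.7 and 18.3 TPM over stages 14, 16, 18 and 20. The median step was 0.54, 0.87 and 0.61 on the log2(TPM + 1) scale, and the largest step was that from 16 to 18 in 319 models, 14 to 16 in 155 and 18 to 20 in 135. The rule itself requires the middle step to be positive, so this order is a description. A group of 10 models was 2-fold or more higher at all 3 steps. Its median went from 0.951 TPM at stage 14 to 4.42, 15.0 and 42.3 TPM, and its highest member reached 323 TPM at stage 20.

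For the falls too the middle step had the largest median. Their median was 19.3, 16.2, 7.75 and 5.35 TPM over stages 14, 16, 18 and 20, with median steps of -0.24, -0.93 and -0.43. The step from 16 to 18 was the largest in 105 of 167 models. Only 86 were lower at every step, 41 were higher at stage 16 than at stage 14, and 45 were higher at stage 20 than at stage 18. Of the latter, 15 came back up by 2-fold or more, and 9 of all falls were listed at 0 at stage 18 alone. No model was 2-fold or more lower at all 3 steps.

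The models named for the largest moves between neighbouring stages switched between listed zeros and values above 0. XeXenL6RMv10024106m, the largest rise from stage 14 to 16, was listed at 0 up to stage 14 and stood at 161, 60.2 and 273 TPM at stages 16, 18 and 20 and at 313 to 468 TPM afterwards. XeXenL6RMv10027830m stood at 3222 TPM at stage 12, was listed at 0 at stage 14, and stood at 152, 1165 and 155 TPM at stages 16, 18 and 20. These values meet the rule for a consistent rise. XeXenL6RMv10013697m, the largest drop at that step, stood at 172 TPM at stage 14, was listed at 0 at stages 16 and 18 and stood at 60.6 TPM at stage 20. For XeXenL6RMv10052603m the values were 163, 0, 196 and 57.5 TPM over the 4 stages. All 4 moved both up and down within the neurula.

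From stage 18 to 20 the pattern was the same. XeXenL6RMv10026063m stood at 221 and 219 TPM at stages 14 and 16, was listed at 0 at stage 18 and came to 113 TPM at stage 20, which meets the rule for a consistent fall. XeXenL6RMv10017012m stood at 24.3, 58.2, 0 and 73.9 TPM over the 4 stages. In the other direction XeXenL6RMv10050361m stood at 624, 137, 313 and 0 TPM, and XeXenL6RMv10022286m at 0, 45.7, 52.1 and 0 TPM. At stages 16, 18 and 23 the values of the first of these are near whole multiples of those of the second. At stage 26 they are not, though values resting on few reads need not be whole multiples of each other. The number of reads behind such values is not known, and whether they rest on few reads was not tested. A model listed at 0 in 1 library while at 10 TPM or more in the other 3 was found 7 times for stage 14, 4 times for stage 16, 8 times for stage 18 and 3 times for stage 20. Reads shared between near-identical models, which this genome holds in number since an ancient doubling left it with paired copies of many genes, cannot be told apart from these values. Of the consistent changes, 38 rises and 17 falls had a 0 in at least 1 of the 4 libraries, and without all models that had one, 571 rises and 150 falls were left.

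Some models peaked or dipped at 1 stage by 2-fold or more on both sides. A peak at stage 16 was seen in 54 models and one at stage 18 in 24; a dip at stage 16 was seen in 59 and one at stage 18 in 96. Of these, 19, 9, 18 and 35 had a listed 0 among the 4 values. The dips at stage 18 outnumbered the peaks there, and the difference was not tested.

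The rises were split by set levels before the neurula, which the rule did not use. Whether they form separate groups was not tested. In 207 of 609 (34.0%) the level was under 1 TPM in every library up to stage 12, against 375 of all 12664 models compared (2.96%). The median of these 207 was listed at 0 at stage 12 and stood at 2.70, 4.78, 10.8 and 19.4 TPM over stages 14, 16, 18 and 20. It was then 28.4, 29.1, 22.9 and 19.8 TPM over stages 23, 26, 30 and 33, so the typical level was kept through the tailbud. Such models need a rise to be compared at all, and 105 of the 207 passed the filter only through the late libraries. They also made up 122 of the 143 higher calls, with a median SE of 0.35 against 0.57 in the next group; each was under 1 TPM in 10 of the 18 libraries, and the part of this in the calls was not tested.

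A second group of 168 rises (27.6%) was abundant in cleavage, before most zygotic transcription, with a median of 10 TPM or more over the 5 cleavage libraries; such RNA is supplied by the mother. Their median was 32.6, 19.1 and 5.13 TPM over stages 9, 10 and 12. It was lowest at stage 14 with 4.04 TPM and came to 5.78, 11.3 and 14.9 TPM at stages 16, 18 and 20, then to 16.7 to 18.5 TPM in the 4 later libraries. The typical model of this group was thus lower in the early neurula than in cleavage and higher again by stage 20, at a level under that at stage 9. The increase from the early to the late neurula is required by the rule. Over all 8947 models with this cleavage level, the medians were 20.2, 21.8, 21.6 and 23.6 TPM over stages 14, 16, 18 and 20. Such models were 70.6% of all models compared, of which 1.88% were rises, and 3 of the 168 were called by limma. The other 234 rises had medians of 2.00, 4.21 and 21.2 TPM over stages 12, 14 and 20.

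The falls had other histories. In 80 of 167 (47.9%) the cleavage median was 10 TPM or more, against 70.6% of all models compared. Their median was 74.1, 63.7 and 31.8 TPM over stages 9, 10 and 12, then 19.1, 15.7, 7.19 and 5.33 TPM over the 4 neurula stages, and ended at 2.98 TPM at stage 33. It was lower at each of these stages than at the one before, which from the early to the late neurula is required by the rule. A further 57 (34.1%) were under 1 TPM in the cleavage median and reached 10 TPM or more at stage 10 or 12, a pattern found in 674 of all models compared (5.32%). The median of these 57 was 2.71, 23.6 and 56.2 TPM over stages 9, 10 and 12, the last being its highest point. It was 29.6, 23.6, 12.1 and 8.31 TPM at stages 14, 16, 18 and 20 and 0.871 TPM at stage 33. Of the 674 models with this gastrula onset, 57 (8.46%) were consistent falls and 10 (1.48%) were rises, with a median difference of -0.17 over the 674. The remaining 30 falls were low before the neurula, with a median of 5.35 TPM at stage 12 and 10.3 at stage 14.

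**Figure D4:**
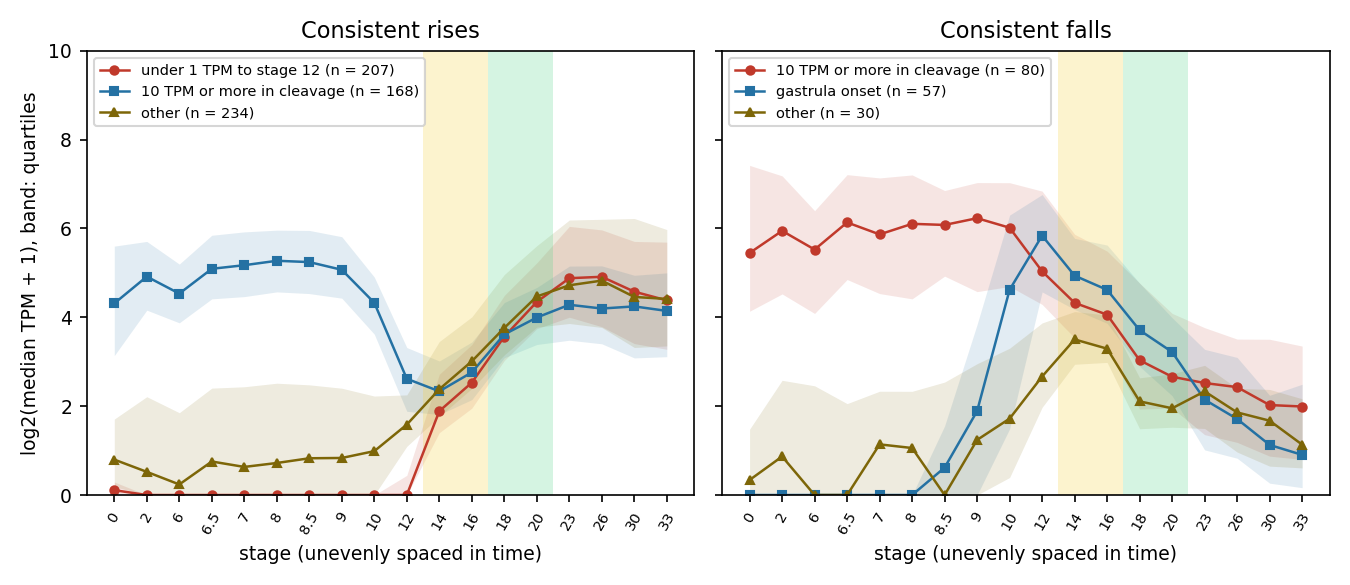
Level over the 18 libraries by stage, as log2(median TPM + 1) with quartile bands, for the consistent rises (left) and falls (right) split by their values before the neurula; yellow marks the early and green the late neurula, where the models were chosen. The lines show 207 rises from near 0 and 168 that return from a low point at stage 14, 80 falls that continue from a cleavage level and 57 from a maximum at stage 12, beside 234 other rises and 30 other falls.

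The gastrula and tailbud libraries, which the rule did not use, were compared for the same models. All 4 tailbud columns carry the suffix rr and neither gastrula column does, so the suffix and the stage cannot be told apart here. All 4 tailbud libraries (stages 23, 26, 30 and 33) lay above both gastrula libraries (stages 10 and 12) in 478 of 609 rises (78.5%), against 3252 of all 12664 models (25.7%). All 4 lay below both in 111 of 167 falls (66.5%), against 3773 of all models (29.8%). The median difference between tailbud and gastrula in log2(TPM + 1) was 3.02 for the rises, with quartiles of 1.32 and 4.71, and -2.53 for the falls, with quartiles of -4.35 and -1.10. Over all models it was -0.09. Some of these models entered only through the side where they were high. Among the 367 rises and 115 falls at 5 TPM or more in a library of each side, a split made after seeing the data, 300 (81.7%) and 78 (67.8%) showed the same order, against 24.6% above and 30.5% below for 12008 models under this condition. The exceptions among all rises and falls were 6 rises with all 4 tailbud values below both gastrula values, and 4 falls with all 4 above.

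The highest value outside the neurula lay in the tailbud for 458 rises (75.2%). More often this was at stages 23 or 26 (314) than at 30 or 33 (144), as over all models (2297 and 1309). The highest value lay in the gastrula for 4 rises (0.657%) but for 88 falls (52.7%). Over all models compared, the tailbud held it in 28.5% and the gastrula in 15.1%. With the neurula included, 93 rises (15.3%) had their highest value of all 18 libraries in the late neurula, against 11.8% of all models compared. For 74 of them (12.15% of the rises) it lay at stage 20, against 7.97% of all models. For 34 falls (20.4%) it lay in the early neurula, against 8.20% of all models. The rule used these neurula values, so none of these shares is separate from the choice of models. In the tailbud 399 rises (65.5%) were at 10 TPM or more in all 4 libraries, and 70 were at 100 TPM or more. Of the falls, 16 (9.58%) stayed at 10 TPM or more in all 4 and 21 (12.6%) were under 1 TPM in all 4. The respective shares over all models were 57.0% at 10 TPM or more, 8.45% at 100 TPM or more and 0.308% under 1 TPM.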

How the data were processed

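The authors deposited 1 table of TPM for 31357 gene models and 88 spike-in entries in 18 poly(A)-selected libraries. Per the submitters' processing notes the tools included RSEM, Bowtie, Trimmomatic and CASAVA 1.8.2, with no roles stated. No genome build is named in the labels or the file. The 18 value columns were matched to samples by stage.

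Spike-ins were dropped, as were 2 models that are listed at 0 in 13 of the 18 libraries, the neurula included, and together hold 3.94% to 44.8% of the gene-model total in the other 5. Each column was then rescaled to 1000000. Tests across all models were fitted to log2(TPM + 1) by limma 3.58.1 (R 4.3.3), using its trend of variance on mean and Benjamini-Hochberg adjustment at 0.05, two-sided. Stages are not replicates, so p-values measure differences against the spread between the stages of a group, pooled over the groups fitted. The cleavage group holds 5 of the 18 libraries, from stages 0 to 7. The fit was tested on simulated data. Because no identifier could be paired with a symbol, cell type marker lists were not used, and no sequence is shown. For each comparison at most 2 models up and 2 down are named: those with the largest difference at 10 TPM or more in a library compared, for early against late neurula also with a consistent change and an adjusted p under 0.05. Members, rules and lists were chosen with earlier results of these data known. Alternatives covered scaling, pseudocount, filter, left-out libraries and the fit.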

Additional observations from a re-analysis of the deposited data

How the results depend on the processing

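Counts moved with the filter, the pseudocount and spike-in scaling. For consistent rises and falls, against 609 and 167, a filter of 1 TPM gave 1232 and 278, one of 10 TPM 338 and 107, no filter 1354 and 293, and a pseudocount of 5 gave 285 and 77. Spike-in scaling gave 3722 and 20, and falls were 272 with median-of-ratios scaling and 404 with quantile normalization. Leaving out 1 neurula library gave 414 (without stage 20) to 1080 rises (without stage 16) and 182 (without stage 20) to 326 falls (without stage 18); it was 1079 rises without stage 18 and 268 falls without stage 16.

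For models called higher and lower by limma, against 143 and 5, a filter of 1 TPM gave 434 and 35, one of 10 TPM 70 and 2, no filter 597 and 72, a pseudocount of 0.1 gave 10 and 0 (516 at an unadjusted p under 0.05), one of 5 gave 287 and 18, and values under 1 TPM set to 1 TPM gave 277 and 16. Spike-in scaling gave 233 and 2, and lower calls were 15 with median-of-ratios scaling and 37 with quantile normalization. The 4 neurula libraries alone gave 2 and 0, the 8 libraries from stage 14 on 232 and 31, and the linear trend 593 and 167. Leaving out 1 library gave 21 to 200 and 0 to 3; without stage 14 there were 24 and 0 (407 at an unadjusted p under 0.05). Chosen after seeing the data, a filter on the mean of the 14 other libraries gave 85 and 2, and leaving out models with a 0 gave 3 lower calls.

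For the steps 14 to 16, 16 to 18 and 18 to 20, against 594, 555 and 581 models past 2-fold, a pseudocount of 5 gave 197, 226 and 255, a filter of 1 TPM 1424, 1365 and 1492, one of 10 TPM 282, 277 and 312, and no filter 1810, 1782 and 2164. Quantile normalization gave 843 at the second step; spike-in scaling gave 4878 and the filter on other libraries 963 at the third. Both named rises and XeXenL6RMv10003207m had their direction fixed by the filter, and leaving out models with a 0 removed them. Of the named models, XeXenL6RMv10037918m kept its call under 18 of 18 alternatives that held the model (limma adjusted p between 1.29e-09 and 0.0422). XeXenL6RMv10003536m lost it in 2 of 18 (up to 0.0993), XeXenL6RMv10003207m in 7 of 17 (up to 0.264) and XeXenL6RMv10053373m in 7 of 19 (up to 0.4). None of them changed direction. No paired analysis was possible because each stage has 1 library and the labels give no replicate numbers. With depth unknown, a model listed at 0 cannot be told from one too low to be counted.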
